A study of Homo sapiens with 2 samples.

Results

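The genes described here are 39 genes of meiosis and germ cells, all on autosomes, taken by name and by their RefSeq gene intervals on the human build hg38: 10 early germ cell genes, 4 genes of meiotic cohesin, 9 of synapsis, 8 of recombination and 8 other germ cell genes. They were followed among 15106 autosomal protein-coding gene starts whose direction is known, in undifferentiated H9 cells, an established line of human embryonic stem cells grown on Matrigel in mTeSR medium without treatment. There was 1 group with 2 replicates; the labels do not say whether each was its own culture, so SDs and the test between replicates measure only how these 2 libraries differ, which may be technical. The assay, ATAC-Me, lets a transposase insert adapters into accessible chromatin and then converts unmethylated cytosines, so that the fragments it releases report accessibility by where they lie and methylation by what they read. The values are therefore those of the fragments that the transposase released, and a bulk library cannot tell a mixture of cells from a mixture of the alleles within each cell.

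Meiosis pairs the parental chromosomes, breaks and recombines them, and then divides them without an intervening replication. It uses its own cohesin rings, a protein ladder between paired chromosomes called the synaptonemal complex, and a recombination machinery built around a meiotic recombinase. Many germ cell genes are known to carry promoter methylation in somatic cells and to lose it in the germ line, where the genome is largely demethylated before meiosis begins.

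Autosomal CpG reads, each a read covering a CpG, totalled 28475863 in replicate 1 and 51406146 in replicate 2, and 31.6% and 59.0% of the autosomal CpGs had at least 1 read. Over all autosomal CpGs 32.3% of reads were methylated in replicate 1 and 46.0% in replicate 2. As a check of the label, the 5 measured starts of pluripotency markers, SOX2 and NANOG among them, had under 2% methylation on average and a peak each, but so did the 4 measured starts of neural progenitor markers, so that these tables do not separate the cell types by such starts. Among the primordial germ cell markers, DDX4 (90.5% ± 5.18, SD, n = 2) and DND1 (90.6% ± 0.105) were over 80%, KIT (0.560% ± 0.378) and PRDM1 (1.17% ± 1.65) were low, and NANOS3 (17.2% ± 8.61), at 11.1% and 23.3%, was in neither class and had no peak.

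A start is the first base of the gene interval in the direction of transcription, and its methylation is the share of methylated reads over all CpGs within 500 bp. A start counted as measured when both replicates had 20 or more CpG reads there, and 33 of the 39 genes reached this (84.6%, against 74.4% of all starts). Over 80% in both replicates were 13 of the 33 (39.4%), a class that held 2.66% of all measured starts. Under 20% in both were 14 (42.4%, against 90.7% of all starts), and 6 lay in neither class (18.2%, against 6.67%). The median of the 33 genes was 38.9% in replicate 1 and 51.5% in replicate 2, and that of all measured starts 0.696% and 1.68%. The share in neither class was thus larger among the genes than among all starts. By role, all 4 cohesin genes were under 20%, although with an unweighted mean over CpGs STAG3 (26.7%) and SMC1B (20.2%) were not, and of the 7 measured other germ cell genes none was. The lower Wilson 95% bound was itself over 80% in both replicates at 4 of the 13: MEI1, MSH4, BRDT and STK31.

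**Figure D1:**
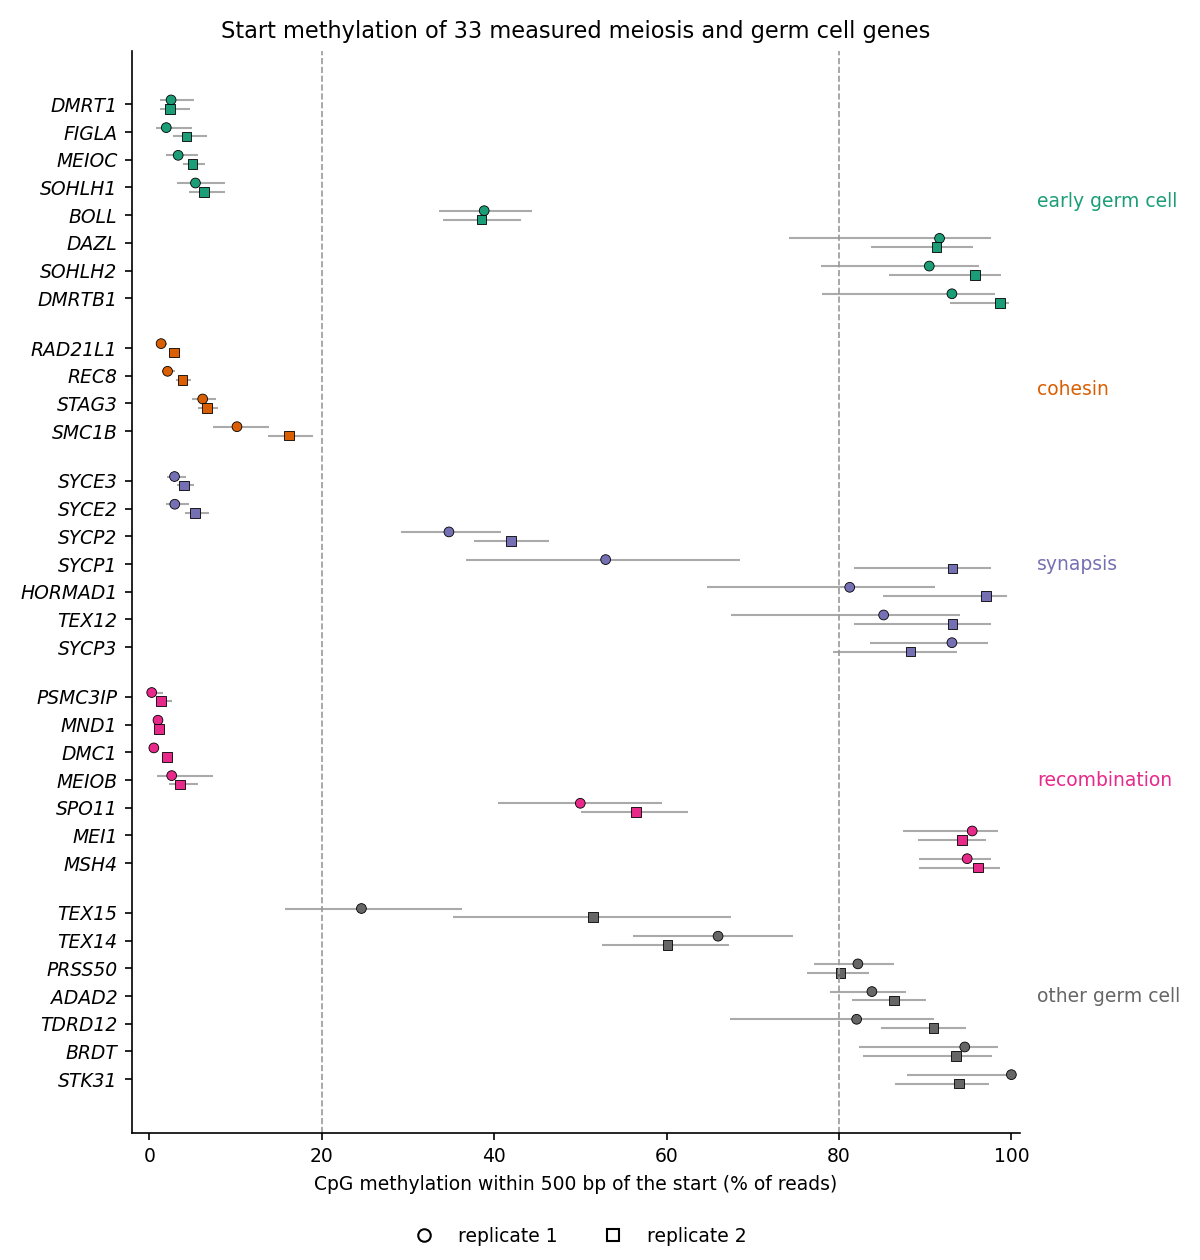
CpG methylation within 500 bp of the start (horizontal axis, percent of reads) of the 33 measured genes, by subgroup. Circles are replicate 1, squares replicate 2, grey lines Wilson 95% intervals of the reads, and dashed lines the limits of 20% and 80%. The 4 cohesin genes sit to the left of the lower limit in both replicates (90.7% of all measured starts do). To the right of the upper limit sit 5 of 7 other germ cell genes (2.66% of all measured starts do).

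Sequences are shown for the 250 bases before the start, from RefSeq on GRCh38.p14, written 5′ to 3′ along the gene's own strand with every CpG in capitals, because CpGs are what the assay reads. The first set holds the methylated gene with the most reads in each subgroup that has one. These sequences hold 28 CpGs at DAZL, 19 at SYCP3, 15 at MEI1 and 20 at PRSS50.
DAZL (chr3:16605424-16605673, minus strand): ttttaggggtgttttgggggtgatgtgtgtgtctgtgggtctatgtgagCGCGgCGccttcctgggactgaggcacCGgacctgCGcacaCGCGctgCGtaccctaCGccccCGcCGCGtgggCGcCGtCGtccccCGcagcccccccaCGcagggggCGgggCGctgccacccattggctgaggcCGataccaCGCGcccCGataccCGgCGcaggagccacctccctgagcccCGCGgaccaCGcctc
SYCP3 (chr12:101739463-101739712, minus strand): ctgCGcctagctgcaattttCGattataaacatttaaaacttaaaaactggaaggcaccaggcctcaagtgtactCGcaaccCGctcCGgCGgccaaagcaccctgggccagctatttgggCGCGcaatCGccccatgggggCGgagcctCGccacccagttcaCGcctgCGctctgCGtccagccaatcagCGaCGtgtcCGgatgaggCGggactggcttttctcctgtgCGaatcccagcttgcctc
MEI1 (chr22:41699253-41699502, plus strand): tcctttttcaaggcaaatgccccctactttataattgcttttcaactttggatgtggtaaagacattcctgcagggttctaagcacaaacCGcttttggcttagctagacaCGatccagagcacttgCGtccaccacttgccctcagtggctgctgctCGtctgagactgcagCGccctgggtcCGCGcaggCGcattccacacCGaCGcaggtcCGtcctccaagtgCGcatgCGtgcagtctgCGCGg
PRSS50 (chr3:46717870-46718119, minus strand): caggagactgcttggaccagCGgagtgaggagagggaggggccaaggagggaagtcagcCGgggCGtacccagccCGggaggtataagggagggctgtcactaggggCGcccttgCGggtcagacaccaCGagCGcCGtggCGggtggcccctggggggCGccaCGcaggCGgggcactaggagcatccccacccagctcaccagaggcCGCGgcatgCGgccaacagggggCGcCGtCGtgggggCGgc
In these 250 bases the methylation was 93.8% and 78.9% at DAZL (16 and 19 CpG reads), 96.3% and 95.7% at SYCP3 (27 and 23 reads), and 78.3% and 76.9% at PRSS50 (189 and 334 reads). At MEI1 the 15 reads of both replicates together, 1 and 14, were all methylated.

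The second set holds the 3 unmethylated genes with the most reads, and they are as rich in CpGs as the methylated DAZL sequence or nearly so: 31 at RAD21L1, 28 at MND1 and 23 at DMC1.
RAD21L1 (chr20:1225794-1226043, plus strand): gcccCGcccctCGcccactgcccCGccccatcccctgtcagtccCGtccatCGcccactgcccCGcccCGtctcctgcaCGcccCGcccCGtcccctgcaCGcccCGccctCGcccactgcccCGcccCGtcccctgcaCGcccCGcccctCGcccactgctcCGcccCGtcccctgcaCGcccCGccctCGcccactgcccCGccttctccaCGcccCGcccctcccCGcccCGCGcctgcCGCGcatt
MND1 (chr4:153344399-153344648, plus strand): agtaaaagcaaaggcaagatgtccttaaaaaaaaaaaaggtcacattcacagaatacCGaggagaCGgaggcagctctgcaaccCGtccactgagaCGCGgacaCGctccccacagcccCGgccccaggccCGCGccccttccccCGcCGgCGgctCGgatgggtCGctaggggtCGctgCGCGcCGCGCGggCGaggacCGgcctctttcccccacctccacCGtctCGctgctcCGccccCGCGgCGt
DMC1 (chr22:38570184-38570433, minus strand): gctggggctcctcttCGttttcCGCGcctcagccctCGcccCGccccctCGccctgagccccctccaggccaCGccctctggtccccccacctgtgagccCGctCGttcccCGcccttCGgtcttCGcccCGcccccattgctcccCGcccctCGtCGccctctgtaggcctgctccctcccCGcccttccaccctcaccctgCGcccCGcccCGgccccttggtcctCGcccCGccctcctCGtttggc
Their methylation was 1.60% and 3.66% at RAD21L1 (626 and 1611 reads), 0.258% and 1.93% at MND1 (776 in each replicate), and 0.699% and 2.38% at DMC1 (715 and 1387 reads). DAZL and MND1 have 28 CpGs each in these 250 bases and lay at opposite ends of the scale.

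The cohesin genes encode the meiotic versions of the ring that holds sister chromatids together. RAD21L1 and REC8 encode its closing subunit, the kleisin, and both starts were unmethylated: 1.38% and 2.91% at RAD21L1 (1523 and 3234 reads) and 2.13% and 3.86% at REC8 (1361 and 1837 reads). STAG3, the subunit that binds the kleisin, had 6.20% and 6.74% (1177 and 1854 reads), and SMC1B, a core subunit, had 10.2% and 16.2% (334 and 771 reads). Each of these 4 starts had a summit of open chromatin at 87 to 340 bp. A peak summit within 1000 bp was found for 88.5% of all starts under 20%, and for 62.2% of all starts. The peaks at REC8, STAG3 and RAD21L1 had a signal above 97.3%, 94.9% and 94.1% of the peaks in the list. That at SMC1B was above only 41.1%. This signal is the authors' own value.

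The low value of SMC1B and STAG3 did not cover the whole window. At SMC1B the 500 bp upstream had 2.80% and 3.15% and the 500 bp downstream 54.2% and 63.5%. At STAG3 the upstream side had 0.392% and 1.38% and the downstream side 44.2% and 31.7%. The same side was higher in both replicates of both genes, and REC8 showed a smaller step from 1.04% and 1.49% upstream to 14.7% and 21.1% downstream. RAD21L1 showed no such step, with 1.52% and 3.36% upstream and 0.485% and 0.574% downstream.

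In finer bins STAG3 went from 0.597% and 1.82% in the last 250 bp before the start to 38.4% and 28.5% in the 250 bp after it, and to 88.9% and 93.8% in the next 250 bp, where 18 and 16 reads were counted. Reads were most numerous in the low part, so that the summed value of such a window leans to the accessible side; an unweighted mean over CpGs, for example, put STAG3 26.0 points above STAG1, whereas the summed reads put it 5.78 points above. STAG1, its counterpart in somatic cohesin, had 0.159% and 1.23%, and SMC3, the core subunit that both kinds of cohesin share, had 0.133% and 1.32%. Within 500 bp STAG3 has 74 CpGs and STAG1 129.

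The early germ cell genes fell into both extremes. Of 8 measured, 3 were over 80% (against 2.66% of all starts), 4 under 20% (against 90.7%) and 1 between. DAZL, an RNA-binding protein that germ cells need to enter meiosis, had 91.7% and 91.3% (24 and 92 reads). DMRTB1, a DM-domain transcription factor of spermatogonia, had 93.1% and 98.7% (29 and 76 reads), and SOHLH2, a basic helix-loop-helix factor of spermatogonia and oocytes, had 90.5% and 95.7% (42 and 47 reads). All of these had their nearest peak summit more than 10000 bp away.

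On the low side, DMRT1, a DM-domain factor of the gonad, had 2.54% and 2.45% (276 and 326 reads). FIGLA, the oocyte factor that turns on zona pellucida genes, had 1.98% and 4.34% (202 and 415 reads), and MEIOC, which keeps cells in meiotic prophase, had 3.36% and 5.03% (387 and 1054 reads). A summit lay 185 bp upstream of MEIOC, 942 bp downstream of FIGLA and 1106 bp upstream of DMRT1, the last just beyond the limit of 1000 bp. DMRT1 lay in a wider stretch of low methylation: from 750 to 1500 bp downstream its bins of 250 bp stayed between 0% and 7.94%, after a bin of 33.3% and 16.7% that rests on 9 and 18 reads.

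SOHLH1, the partner of SOHLH2, gave opposite values at its 2 candidate starts. The first base of its gene interval, 73 bp from the start of KCNT1 on the other strand, had 5.36% and 6.38% (261 and 549 reads). The start listed in the promoter table, 2631 bp further into the gene, had 91.5% and 89.0% (47 and 136 reads), so the class of SOHLH1 depends on which start is meant.

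BOLL, a relative of DAZL, had an intermediate value that was nearly identical in the replicates: 38.9% and 38.5% (314 and 441 reads; 38.7% ± 0.215, SD, n = 2). Of its 67 CpGs with at least 5 reads over both replicates, 46 lay between 20% and 80%, so that here the single CpGs were intermediate too. A peak covered chr2:197786038-197786294, with its summit 34 bp downstream of the start, and its own CpGs had 38.6% and 33.2%. The second listed start of BOLL, 887 bp downstream, had 87.2% and 91.3% (47 and 126 reads).

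STRA8, the retinoic acid target that starts meiosis, and NOBOX, an oocyte homeobox factor, were not measured, with 1 and 12 reads at STRA8 and 6 and 4 at NOBOX. The few reads of STRA8 were all methylated. Its second listed start, 1923 bp downstream, had 93.3% and 87.5% (30 and 48 reads). Between these starts lay a peak at chr7:135232822-135233013, with its summit 1014 bp downstream of the first base. The CpGs inside this peak had 62.9% and 63.1% (70 and 65 reads). Just outside the minimum of reads lay SYCE1, of the synapsis genes, with 92.3% and 82.4% from 26 and 17 reads, and just inside it DAZL, with 24 reads in replicate 1.

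The synapsis genes differed within the same structure. The synaptonemal complex has lateral elements (SYCP2, SYCP3), transverse filaments (SYCP1) and a central element (SYCE1, SYCE2, SYCE3, TEX12), and HORMAD1 and HORMAD2 bind the chromosome axes. Of the central element, SYCE2 (2.97% and 5.35%; 640 and 1046 reads) and SYCE3 (2.93% and 4.08%; 920 and 1545 reads) were unmethylated with summits 74 and 37 bp from their starts. TEX12, which forms filaments together with SYCE2, had 85.2% and 93.2% (27 and 44 reads) with its nearest summit 3250 bp away.

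The lateral element was divided as well: SYCP3 had 93.1% and 88.3% (58 and 77 reads), and SYCP2 had 34.8% and 41.9% (256 and 484 reads). SYCP2 had the most CpGs of all 39 genes within 500 bp, 117, and a peak at chr20:59933835-59934252, whose summit is 478 bp upstream. The CpGs inside that peak had 3.11% and 5.10%, the 500 bp upstream of the start 29.1% and 30.5%, and the 500 bp downstream 79.3% and 92.2% (29 and 90 reads). The mean of SYCP2 was 38.4%, and 61.6% within 250 bp. FAM217B starts on the other strand 142 bp away. The 250 bp just upstream of the SYCP2 start were not unmethylated, with 56.8% and 55.6%. Low values came only from 250 to 500 bp upstream on, with 2.59% and 3.17% in that bin.

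HORMAD1 had 81.3% and 97.1% (32 and 34 reads), with Wilson 95% intervals of 64.7% to 91.1% and 85.1% to 99.5%, so its place above 80% is not firm in replicate 1. HORMAD2 had 1 and 12 reads at the first base of its interval, but its listed start 2732 bp downstream had 3.27% and 7.60% (888 and 1316 reads) with a summit 85 bp away. Among the 33 measured genes the replicates differed most at SYCP1, with 52.9% and 93.2% (34 and 44 reads). At its listed start, 775 bp downstream, it had 81.8% and 93.9%, from only 11 reads in replicate 1.

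Of the 7 measured recombination genes 4 were under 20%, against 90.7% of all starts, 2 were over 80%, against 2.66%, and 1 lay between. DMC1, the meiotic recombinase, had 0.538% and 2.10% (1300 and 2100 reads). MND1 and PSMC3IP, which form the complex that helps DMC1 exchange strands, had 1.02% and 1.17% (1868 and 1714 reads) and 0.291% and 1.39% (344 and 647 reads), so that the recombinase and its helpers were all unmethylated and had peaks, with summits at 9 to 306 bp. MEIOB, a single-strand DNA binding protein, was the exception in peaks: 2.61% and 3.59% (115 and 473 reads), yet the nearest summit was 45300 bp away. Its start still had 18.6 and 9.81 times the reads per CpG of its flanks, which rest on 19 and 148 reads.

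SPO11 and MEI1 act in break formation. SPO11, the enzyme that cuts the DNA, had 50% and 56.4% (102 and 241 reads), and MEI1, which is needed for these breaks, had 95.5% and 94.3% (66 and 140 reads). At SPO11 the 250 bp before the start had 89.5% and 96.6% (19 and 88 reads) and the 250 bp after it 39.7% and 29.4% (78 and 126 reads). A peak at chr20:57329958-57330118, on the downstream side, was weak, with a signal above only 4.66% of all peaks, and its CpGs had 34.9% and 29.5%.

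MSH4, which with MSH5 stabilises crossover intermediates, had 94.9% and 96.2% (117 and 78 reads), the most reads of any methylated gene without a peak nearby in replicate 1. Its relatives of mismatch repair were low, MSH3 at 0.372% and 1.75% and MSH6 at 0.585% and 1.32%. MSH4 therefore lay 94.6 ± 0.388 points above MSH6 and 94.5 ± 0.065 above MSH3 (SD, n = 2), although 2 paired values allow no exact p below 0.5. Within 500 bp MSH4 has 38 CpGs, MSH6 112 and MSH3 92, and the part of CpG density in these differences was not tested. MSH5 had no read on any of its 67 CpGs; within 500000 bp of it, in the major histocompatibility region, only 0.983% and 1.85% of CpGs had reads, so no statement on MSH5 is possible.

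The other germ cell genes included 5 of 7 measured starts over 80% (against 2.66% of all starts) and none under 20% (against 90.7%). BRDT, a testis bromodomain protein that reads acetylated histones, had 94.6% and 93.6% (37 and 47 reads), and its widely expressed relative BRD3 had 0.296% and 1.08%, a difference of 93.4 ± 1.25 points (SD, n = 2). Within 500 bp BRDT has 44 CpGs and BRD3 117. STK31, a germ cell protein with a kinase-like domain, had 100% and 93.9% (28 and 82 reads), and TDRD12, a Tudor protein of the piRNA pathway, had 82.1% and 91.0% (39 and 133 reads). TEX101, a surface protein of male germ cells, had 2 and 10 reads and was not measured.

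TEX14, which keeps the bridges between germ cells open, had 66.0% and 60.1% (97 and 168 reads), a mean of 63.0% that was 91.9% within 250 bp and 20.6% within 1000 bp. The peak nearest to TEX14, at chr17:58692488-58692822, has the summit 569 bp upstream and 7.12% and 6.02% methylation inside (379 and 498 reads). The 250 bp after the start had 100% in both replicates (13 and 16 reads). IGBP1C is annotated with the same first base on the same strand. Neighbours were sought only among genes of the promoter table, so whether this peak belongs to TEX14 or to an unlisted neighbour was not tested. TEX15, a testis protein needed for repair of meiotic breaks, had 24.6% and 51.5% (65 and 33 reads) with no summit within 1000 bp, a mean of 38.1% that was 5.98% over the window of 1000 bp on each side. Further downstream, from 500 to 1500 bp, its bins of 250 bp had at most 0.840% in replicate 1 and 2.13% in replicate 2.

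**Figure D2:**
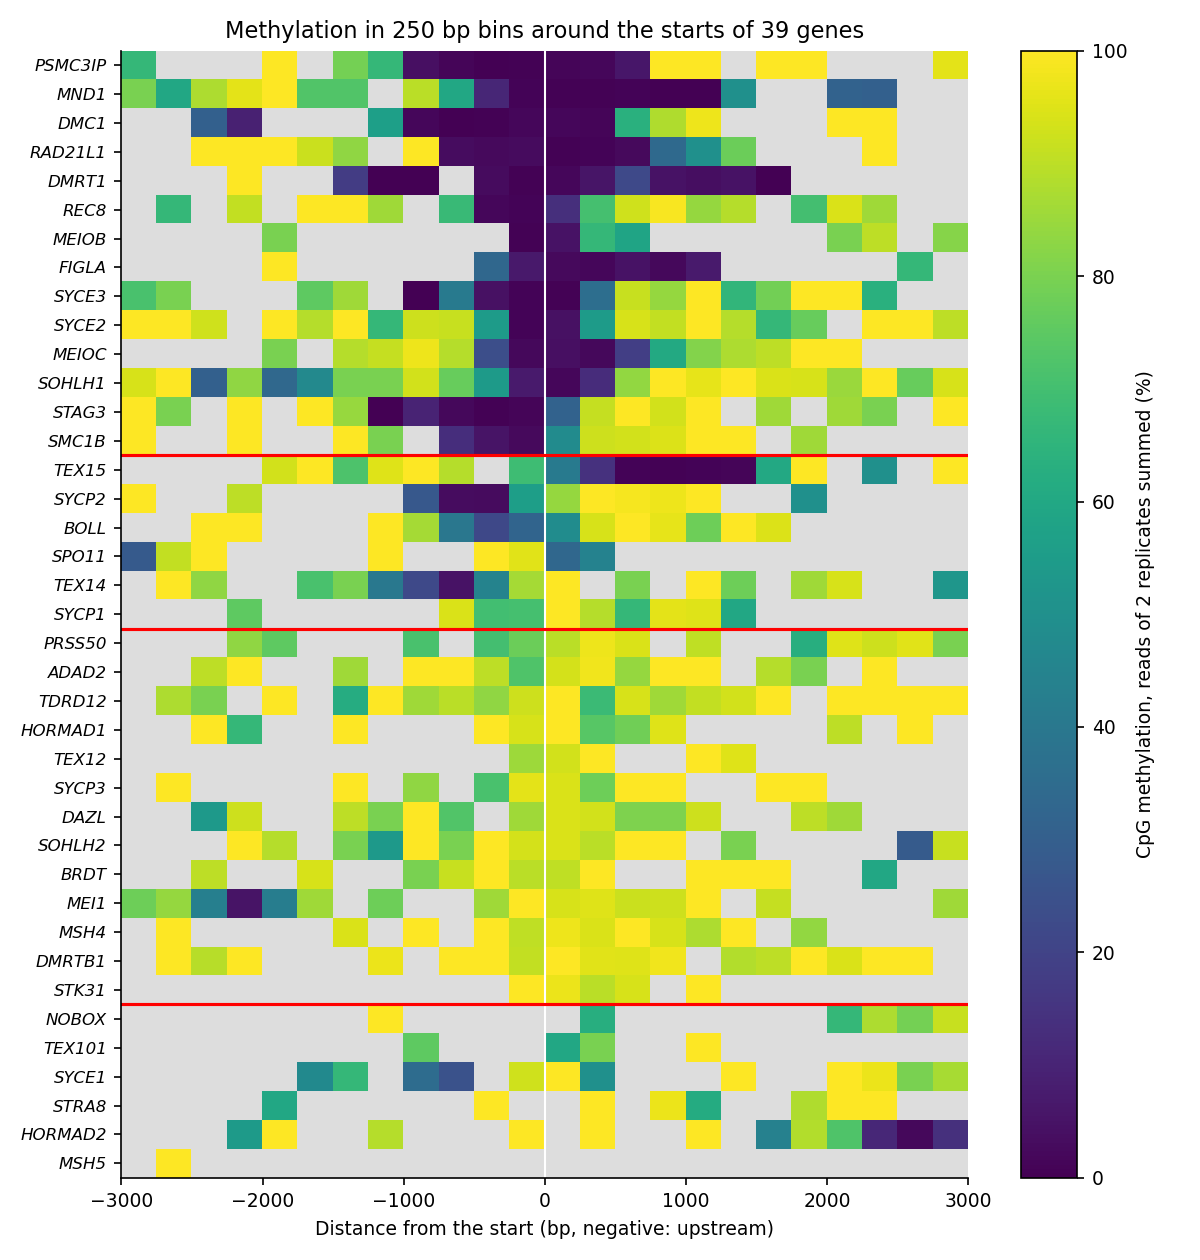
CpG methylation (colour, percent; reads of both replicates summed) in bins of 250 bp from 3000 bp upstream to 3000 bp downstream of the start (horizontal axis) for all 39 genes. Red lines separate, from the top, genes under 20%, between, over 80% and not measured, and grey bins have fewer than 5 reads. Dark low stretches touch the start in the first block, lie upstream of it at SYCP2 and TEX14, and lie downstream at TEX15.

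ADAD2 and PRSS50 combined an open start with methylation. ADAD2, an adenosine deaminase domain protein of the testis, had 83.8% and 86.3% (272 and 249 reads), and PRSS50, a serine protease-like protein of the testis, had 82.2% and 80.2% (264 and 474 reads). Peaks lay at chr16:84190950-84191200 and chr3:46717877-46718146, with summits 71 and 154 bp upstream, and the CpGs inside them had 75.3% and 78.0% at ADAD2 (158 and 123 reads) and 78.2% and 76.8% at PRSS50 (188 and 336 reads). Over 70% in both replicates were 0.368% of all peaks, counting those where each replicate had 50 CpG reads or more. Their signals exceeded 35.3% and 53.7% of peaks, so neither was among the weakest of the list. Of the single CpGs with at least 5 reads, 33 of 51 at PRSS50 and 27 of 40 at ADAD2 were over 80%, and none was under 20%.

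A peak summit within 1000 bp was found for 17 of 39 genes (43.6%, against 62.2% of all starts). It was found for 11 of the 14 unmethylated genes (78.6%, against 88.5% of all unmethylated starts) and for 2 of the 13 methylated ones (15.4%, against 4.68%). Of the 6 intermediate genes 4 had one (66.7%, against 37.5%): BOLL, SPO11, SYCP2 and TEX14. The median distance to the nearest summit was 200 bp for the unmethylated genes (113 bp for all unmethylated starts). For the methylated genes it was 14197 bp (10658 bp for all methylated starts). By CpG density, described further on, 1 of 10 genes in the sparsest class of starts had a peak (10%, against 20.9%), 9 of 19 in the middle class (47.4%, against 82.7%) and 7 of 10 in the densest (70%, against 84.0%). With only the peaks above the median −log10 q of the list, 10 genes were left, beside 49.7% of all starts.

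**Figure D3:**
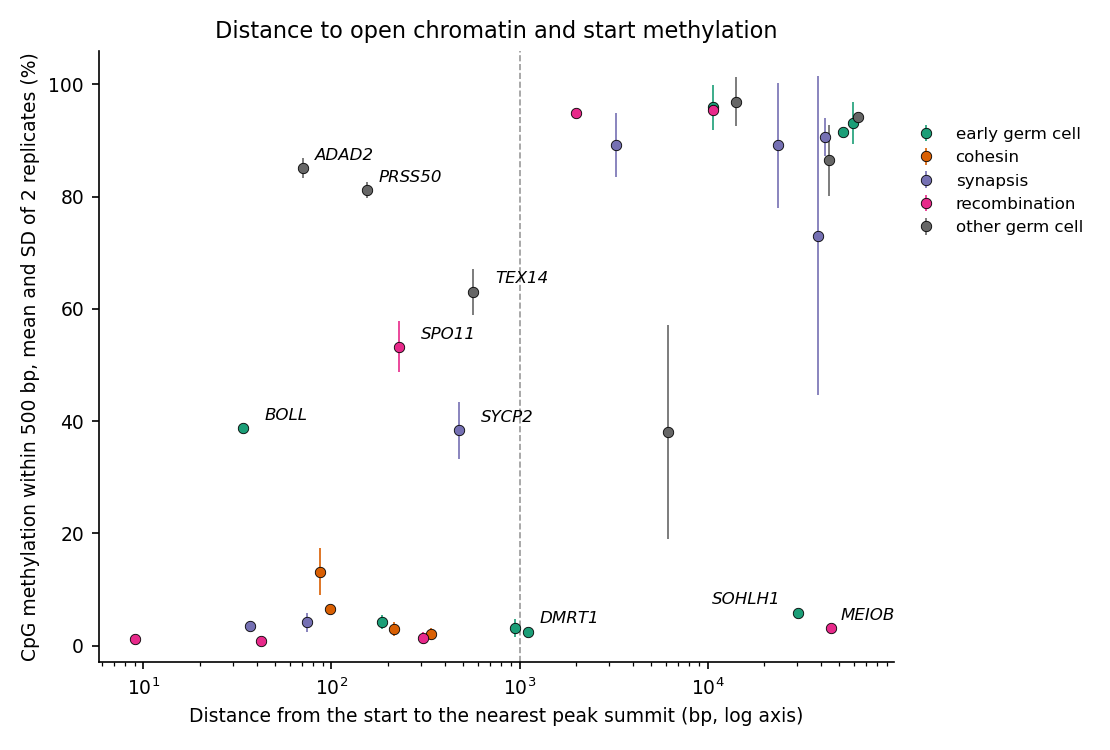
Distance from the start to the nearest peak summit (horizontal log axis, bp) and CpG methylation within 500 bp (vertical axis, percent, mean and SD of 2 replicates) for the 33 measured genes, coloured by subgroup; the dashed line marks 1000 bp. ADAD2 and PRSS50 stand alone at the upper left, and MEIOB and SOHLH1 at the lower right.

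The number of reads moved with the class. Methylated genes had a median of 39 and 78 CpG reads, unmethylated genes 513.5 and 1050, and all measured starts 619 and 905. Per CpG, the start of a methylated gene had 2.42 and 1.37 times the reads of its flanks (2000 to 10000 bp away), and that of an unmethylated gene 16.0 and 8.60 times, as medians. Over all starts the medians were 1.46 and 1.22 for methylated starts, and 16.4 and 8.67 for unmethylated ones. With at least 50 reads in each replicate, 5 of 23 genes remained over 80%, beside 0.673% of all starts, and all 14 unmethylated genes remained; the part of depth in the methylated count was not tested beyond this.

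CpG density also moved with the class. Starts were sorted into 3 density classes of equal size, with limits at 43 and 78 CpGs within 500 bp. In the densest class none of 10 measured genes was over 80% (background 0.537%) and 8 were under 20% (80%, against 98.8%). In the middle class 10 of 17 were over 80% (58.8%, against 2.21%) and 6 under 20% (35.3%, against 95.1%), and in the sparsest class 3 of 6 were over 80% (50%, against 10.3%) and none under 20% (against 53.6%). The methylated genes had 38 to 69 CpGs within 500 bp and the unmethylated ones 65 to 104, so that the ranges overlapped only from 65 to 69, where DMRTB1, DAZL, SYCP3, TDRD12 and MEI1 were methylated and REC8, PSMC3IP and SYCE3 were not. Across the 33 genes Spearman's rho of CpG number and methylation was −0.58 in replicate 1 and −0.66 in replicate 2, against −0.37 and −0.35 across all starts; the points share their libraries and depth.

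**Figure D4:**
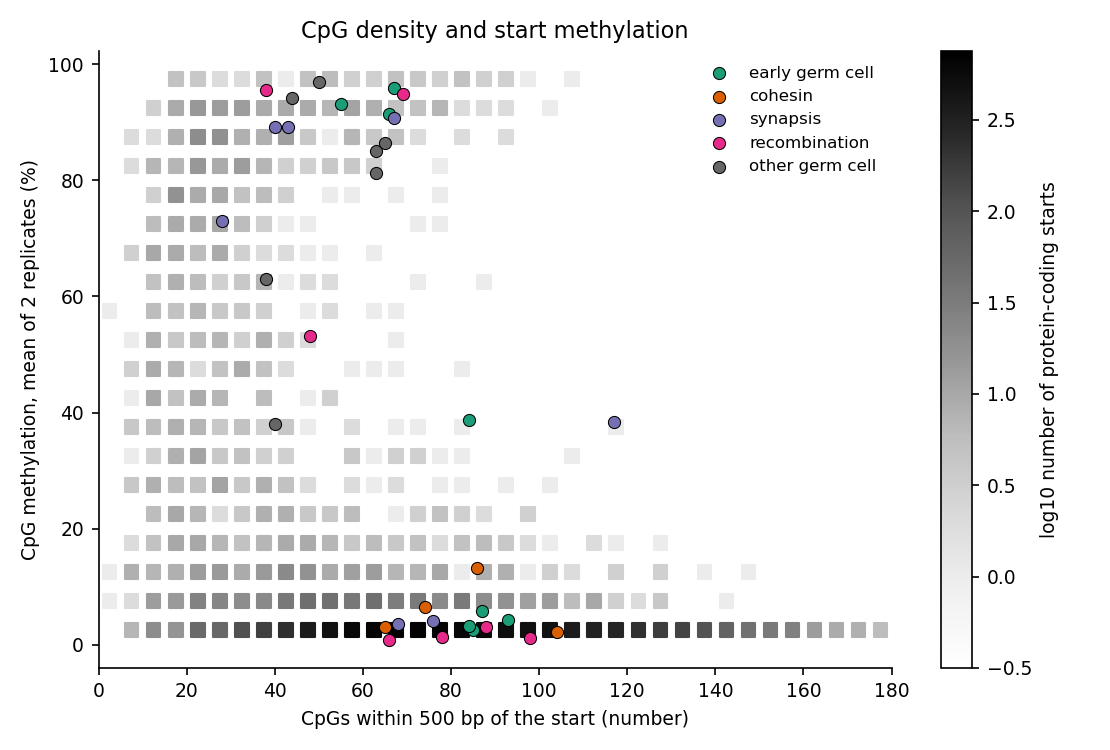
CpGs within 500 bp of the start (horizontal axis, number) and CpG methylation (vertical axis, percent, mean of 2 replicates) for the 33 measured genes, coloured by subgroup, over the number of all measured protein-coding starts (grey, log10 scale). Most starts lie along the bottom, while methylated genes form a group between 38 and 69 CpGs.

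Each start was also set against its own surroundings with Fisher's exact test per library, Benjamini-Hochberg adjusted over all starts. A start lower than its flanks in both libraries was called for 15 of 33 genes (45.5%, against 91.7% of all starts), the 14 unmethylated genes and BOLL. These p-values cover counting error within 1 library, and they are too small, because a read counts at each CpG it covers. Higher than the flanks in both were 8 (24.2%, against 2.66%): DAZL, DMRTB1, SYCP2, TEX12, MEI1, MSH4, STK31 and ADAD2. MEI1 lay 36.2 ± 14.3 points above its flanks (SD, n = 2; adjusted p = 1.05e-12 and 3.24e-11, Fisher's exact test), TEX12 43.9 ± 8.30 and ADAD2 37.4 ± 4.22, whereas STK31 lay 18.4 ± 6.07 above (adjusted p = 0.0132 and 0.0111). The count is sensitive to the flank: with flanks 1000 to 5000 bp away it was 3, and with a window of 250 bp it was 5. The shares of all starts under these settings are not given here, so these counts cannot be set against the background. With every count divided by the CpGs that an average fragment covers, 4 genes were still called higher (SYCP2, TEX12, MEI1 and ADAD2; 1.92% of all starts), DAZL, DMRTB1, MSH4 and STK31 were not, and of the 15 called lower STAG3 was lost. At SYCP2, where the flanks had 10.9% and 15.9%, the 38.4% of the start itself was enough for this call.

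Gene bodies had high medians in both classes. The median methylation of the gene body was 80.1% and 86.4% for genes with an unmethylated start and 75.2% and 84.3% for genes with a methylated one. In replicate 1 the bodies ranged from 41.4% to 92.3% and from 48.4% to 92.5%. Some rest on few reads, such as 13 in replicate 1 at SYCP3 and at PSMC3IP, and TEX12 had none there. No value over all genes is given here.

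The asymmetry seen at SMC1B and STAG3 recurred at SYCP2 and BOLL. Among 19 genes with at least 20 reads on each side in each replicate, the downstream 500 bp exceeded the upstream 500 bp by at least 20 points in both replicates at these 4 (21.1%, against 0.987% of all starts), and the reverse was seen at none (against 1.58%). The difference was 55.8 ± 6.33 points at SMC1B, 37.1 ± 9.55 at STAG3, 56.0 ± 8.15 at SYCP2 and 27.9 ± 1.75 at BOLL (SD, n = 2). Of these, 3 have another gene starting within 1000 bp on the other strand. RIBC2 lies 94 bp from SMC1B, GPC2 343 bp from STAG3 and FAM217B 142 bp from SYCP2. For BOLL no such start is listed. SPO11 was not among the 19 genes because replicate 1 had 19 reads upstream; its downstream side was lower, with 41.0% and 31.1% after 89.5% and 96.8% upstream.

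**Figure D5:**
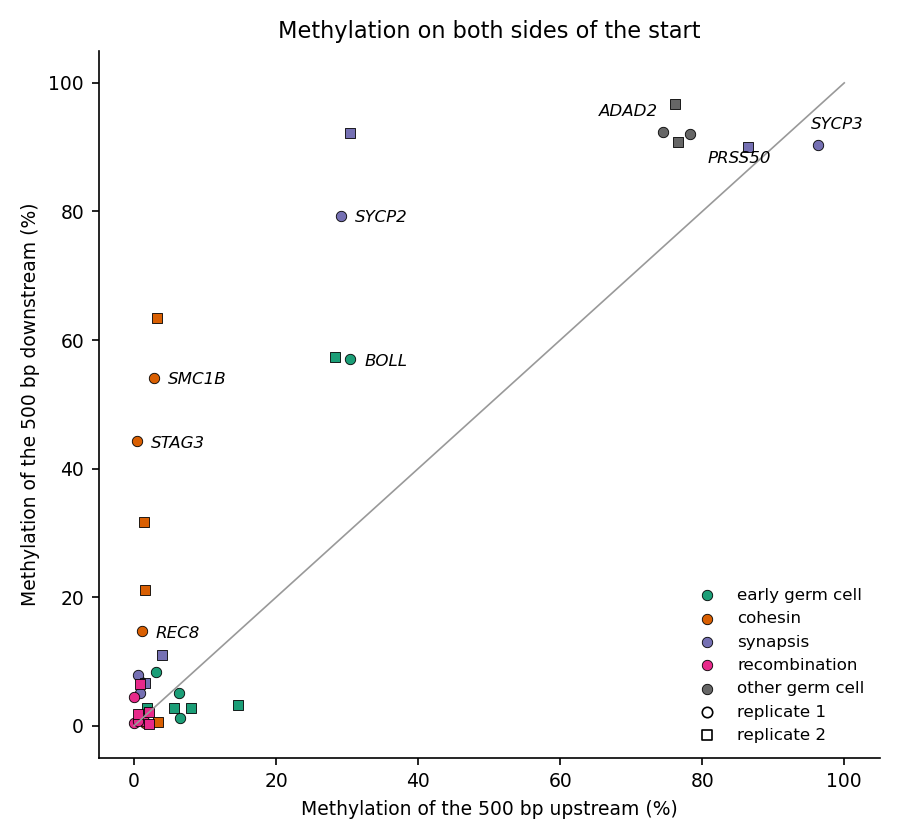
Methylation of the 500 bp upstream (horizontal axis, percent) and downstream (vertical axis, percent) of the start for the 19 genes with at least 20 reads on each side in each replicate. Circles are replicate 1, squares replicate 2, colours mark subgroups, and the line marks equal values. SMC1B, STAG3, SYCP2 and BOLL lie at least 20 points above the line in both replicates.

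In all, 5 of 39 genes had the start of another protein-coding gene within 1000 bp (12.8%, against 15.6% of all starts). Those 5 were SMC1B, STAG3, SYCP2, SOHLH1 and TEX14. Only genes of the promoter table could be found as neighbours, and the direction was known for 15106 of 19126 autosomal protein-coding genes. These counts may therefore miss neighbours. None of the 13 methylated genes had such a neighbour (against 7.02% of methylated starts), and 3 of the 14 unmethylated genes did (21.4%, against 20.8%).

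The replicates were compared at each start, since replicate 2 had more methylated reads in the whole library. Fisher's exact test, two-sided, called 6 of 33 genes (18.2%, against 29.6% of all starts): SYCP1, TEX15, REC8, RAD21L1, DMC1 and SMC1B. Replicate 2 was higher in all 6 (28.3% of all starts were called in that direction and 1.26% in the other), and in 24 of 33 measured genes regardless of the call. The median of replicate 2 minus replicate 1 was 1.53 points at the measured genes and 0.882 at all measured starts. For SYCP1 the adjusted p was 0.000824 (Fisher's exact test), and for SMC1B 0.0343. The test counts a read at each CpG it covers and so gives p-values that are too small; with the counts divided by the CpGs per fragment it called none of the genes (1 at an unadjusted p under 0.05) and none of all starts.

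Motifs were read in the promoter windows of 300 bases, 250 before and 50 after the start listed first in the promoter table. Such windows exist for 34 of the 39 genes. TCCCGC, the core of E2F sites, was found on either strand in 18 of 34 (52.9%, against 35.3% of all windows of this length). CACGTG, an E-box that basic helix-loop-helix factors can bind, was found in 7 of 34 (20.6%, against 8.77%), with 3 copies at SOHLH1, 2 at STK31 and 1 each at SOHLH2, STAG3, BRDT, TDRD12 and ADAD2. Of these 7, STAG3 was unmethylated, and STK31, SOHLH2, BRDT, TDRD12 and ADAD2 were methylated. The window of SOHLH1 is that of its listed start, which had 91.5% and 89.0%, not that of its unmethylated first base. In the densest class of starts the motifs were near the background, TCCCGC in 5 of 9 (55.6%, against 53.3%) and CACGTG in 1 of 9 (11.1%, against 11.0%). That 1 is SOHLH1, whose density class is that of its first base. In the sequences shown above TCCCGC occurs once, at SYCP3, and CACGTG in none.

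A further list of 41 meiosis genes gave 26 measured starts, of which 8 were over 80% (against 2.66% of all starts), 17 under 20% (against 90.7%) and 1 between, with a median of 6.82%, against 1.19% over all measured starts. With at least 50 reads in each library 5 of 23 were over 80%, beside 0.673% of all starts. The highest were MEIOSIN (95.2% ± 1.54), the partner of STRA8, MEIKIN (94.0% ± 7.08), a protein of meiotic kinetochores, MAJIN (93.3% ± 7.49) and TERB1 (90.1% ± 2.66), which tie telomeres to the nuclear envelope, ZNF541 (90.7% ± 2.22) and SHOC1 (90.3% ± 5.19), a crossover protein (SD, n = 2 throughout). The lowest were YTHDC2 (0.774% ± 0.113), the partner of MEIOC, TRIP13 (0.847% ± 0.536), which removes HORMAD proteins from axes, SYCP2L (0.879% ± 1.24), SGO2 (0.943% ± 0.387), a protector of centromeric cohesin, ZCWPW1 (0.980% ± 1.20) and CCNB1IP1 (1.02% ± 0.371). STRA8 and MEIOSIN act together, and MEIOSIN was methylated. STRA8 was not measured at its first base and had high values at its second listed start. MEIOC and YTHDC2, which also act together, were both unmethylated. Of the 12 genes listed as mitotic counterparts, 5 were measured: STAG1, MSH3, MSH6, BRD3, and SMC3, which both kinds of cohesin share. All 5 were under 20% with a peak, as 90.7% of all starts were under 20% and 88.5% of those had a peak.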

How the data were processed

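ATAC-Me libraries of H9 cells, 2 replicates of 1 group, were analysed. The authors deposited, per replicate, the methylated fraction of each CpG and a count of the reads on it, together with 1 peak list with a score, a signal value and the −log10 of the q-value. Trim Galore, Genrich and hg38 (GRCh38) are named per the submitters' processing notes. For mapper, methylation caller, tool versions, duplicate removal and the treatment of replicates in peak calling, the sources used here give nothing. Unconverted cytosines read as methylated and raise low values most.

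Methylated reads are fraction times reads, whole within 0.001 for 100% of CpGs. A read is counted at each CpG it covers and may be a duplicate, so intervals cover counting error only and are too narrow. CpGs that the tables mark (0.299% and 0.632%) were kept. Gene intervals, and direction for 34 genes, came from RefSeq tables of GRCh38.p14; the direction of TEX12, HORMAD1, MEIOB, TEX14 and TEX15 came from general knowledge, and their promoter sequences were not used here. Promoters of chromosome 8 were not used here. Coordinates count from 1.

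A start entered a class with 20 or more CpG reads per replicate. Fisher's exact tests ran over all starts with Benjamini-Hochberg adjustment at 0.05 (Python 3.11.15, numpy 2.4.6, pandas 2.3.3, SciPy 1.17.1, numba 0.67.0); of 100 simulated starts changed by 20 points, the replicate test called 97.0% (11234 starts) and the flank test 63.0% (11227 starts), with reads drawn as independent. The alternatives covered read minimums, windows, weighting, limits, starts, peak distance and strength, flanks and each replicate left out.

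Any of the 39 genes or of the mitotic counterparts could be named, and of the further meiosis list the 6 highest and 6 lowest measured. Marker genes served only to check the label. Promoters were shown for the methylated gene with the most reads in each subgroup and the 3 unmethylated genes with the most reads; neighbouring genes were named after their distances were seen. The genes and lists were chosen with earlier results of these data known. The start listed first in the promoter table, the values without marked CpGs and the flank test with divided counts were alternatives chosen after seeing the data.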

Additional observations from a re-analysis of the deposited data

How the results depend on the processing

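Depth limited the methylated genes most, with 24 to 272 reads in replicate 1. The count over 80% went from 13 to 5 when each replicate needed 50 reads (23 genes measured) and to 5 with unweighted means over CpGs with at least 3 reads (27 measured); the latter put 10 genes in neither class, from 6. Under the other alternatives the 3 class counts moved by at most 1.5 times. The 14 genes under 20% stayed in the low class in every alternative run, except STAG3 (26.7%) and SMC1B (20.2%) under unweighted means and SOHLH1 (from 5.87% to 90.2%) at the start listed first in the promoter table. The median of the measured genes, 38.7%, was 5.87% with at least 50 reads, 10.6% within 250 bp, 26.7% with unweighted means, and 44.4% to 51.5% with a replicate left out.

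Genes with a peak numbered 10 instead of 17 with peaks above the median −log10 q. With counts divided by the CpGs per fragment the 6 replicate calls became 0 and the 8 genes higher than their flanks 4. Those 8 became 3 with flanks 1000 to 5000 bp away, 5 within 250 bp, and 8 to 10 with a replicate left out. No share of all starts is given here beside these counts. STAG3 minus STAG1 was 7.24 points within 250 bp and 26.0 with unweighted means. BRDT minus BRD3 was 89.2 points within 250 bp and 91.8 within 1000 bp; unweighted means gave no value. MSH4 minus MSH6 was 95.3 points within 250 bp, 93.8 within 1000 bp and 93.9 with unweighted means, and MSH4 minus MSH3 was 95.3, 94.5 and 93.7. No difference changed its sign, and the cause of these shifts was not tested.

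TEX15 moved from 38.1% to 5.98% within 1000 bp, TEX14 from 63.0% to 20.6% within 1000 bp and 91.9% within 250 bp, and SYCP2 from 38.4% to 61.6% within 250 bp. HORMAD1, at 89.2%, had an unweighted value in replicate 1 only, 60%. No paired analysis was possible because there is 1 group.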
